A study of Homo sapiens with 8 samples.

Results

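The 8 genes described here encode BCL2 family proteins, which decide whether a cell starts apoptosis. BCL2, BCL2L1 (BCL-xL) and MCL1 are the survival genes of the group. BCL2L11 (BIM), BBC3 (PUMA), PMAIP1 (NOXA), BMF and HRK (Harakiri) are the death genes. They were examined through the H3K27me3 peaks lying within 5 kb and within 25 kb of their transcription starts. The genes were picked by function, with earlier results of these data already known. The survival proteins sit on the outer mitochondrial membrane and hold back the pore formers BAX and BAK1. The death genes encode proteins whose BH3 helix fills the groove of the survival proteins. Leukaemia cells depend on this balance, and kinase signalling is known to keep several BH3-only proteins low. H3K27me3, which PRC2 of the Polycomb system deposits, accompanies repressed genes and in mammals gathers at CpG-rich starts.

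The study mapped the mark by chromatin immunoprecipitation and sequencing in MOLM14, a single acute myeloid leukaemia cell line with a FLT3 internal tandem duplication. Cells received the FLT3 inhibitor AC220 (quizartinib) or its solvent DMSO for 24 h, and Drosophila S2 cells were present in every sample as a spike-in. Each treatment has 2 immunoprecipitated libraries, numbered 1 and 2, each with its own list of broad peaks, and the 4 inputs of the 8 samples have no values used here. The design addresses whether blocking the kinase alters where the mark lies. Nothing in the labels says that libraries of the same treatment came from separate cultures, so the exact p-values below refer only to these libraries. Each p-value ranks the difference of treatment means among the 6 assignments of the 4 libraries, so differences between replicate numbers also enter it.

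The lists hold 104660 peaks in AC220 1, 105063 in DMSO 1, 139812 in AC220 2 and 117708 in DMSO 2. Within 25 kb of the 8 starts lay 6 of these peaks in AC220 1, 3 in DMSO 1, 6 in AC220 2 and 4 in DMSO 2. Over the autosomes and X, the peaks covered 192 Mb in AC220 1 against 232 Mb in DMSO 1, and 496 Mb in AC220 2 against 590 Mb in DMSO 2. The replicates numbered 2 thus covered far more than those numbered 1 under both treatments, and values are given within each number. Read depth is unknown, and a start with no listed peak may still carry the mark below the level at which a peak was listed. The blood gene PTPRC, the myeloid genes SPI1 and CD33, and FLT3 had no peak within 5 kb of their starts in any library. GAPDH and ACTB had none there either. As 56.0% of 10 kb tiles of the genome had no peak in any library, these absences cannot check the cell type. Within 25 kb, 1 of these 6 genes (CD33) had a peak in all 4 libraries, 1 (ACTB) in some and 4 in none. PAX2, a developmental gene silent in blood, was covered over 100% of the 5 kb window in every library. Expression was not measured.

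HRK was the only gene of the 8 with a peak across its start, and this peak was listed in all 4 libraries. No other member had a peak within 5 kb in all 4 libraries. Of 10 kb tiles of the genome, 21.0% had a peak in all 4. The survival genes BCL2, BCL2L1 and MCL1 and the death genes PMAIP1 and BMF had no peak within 25 kb in any library. Of 50 kb tiles of the genome, 37.4% likewise had none. BCL2L11 and BBC3 had short, mostly low-ranked peaks beside their starts, and near the BCL2L11 start these were listed in only 2 of the 4 libraries. HRK was also the only member with enough coverage within 25 kb under DMSO (at least 5% in both replicate numbers) for a loss of 5 percentage points with AC220 to be possible, and it showed no such loss.

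The starts themselves are shown first, because the mark is known for CpG-rich starts and the members differ widely in CG content. RefSeq held a start window (250 bases before to 50 after the start) for 7 of the 8 members, all but MCL1. Each window below is written 5′ to 3′ with CG dinucleotides in capitals. CG reads the same on both strands, and capitals that touch mark adjoining dinucleotides. The first window belongs to HRK, the member with a peak at its start in every library. The second is that of BOK, a pore-forming relative outside the 8 genes that also had such a peak. The others are from PMAIP1 and BCL2, which had no peak within 25 kb, and from BBC3, the member with the fewest CG dinucleotides. These windows are on GRCh38.p14, whereas the peaks are on GRCh37, and they were matched by gene symbol only.
HRK (chr12:116881392-116881691, GRCh38.p14, minus strand): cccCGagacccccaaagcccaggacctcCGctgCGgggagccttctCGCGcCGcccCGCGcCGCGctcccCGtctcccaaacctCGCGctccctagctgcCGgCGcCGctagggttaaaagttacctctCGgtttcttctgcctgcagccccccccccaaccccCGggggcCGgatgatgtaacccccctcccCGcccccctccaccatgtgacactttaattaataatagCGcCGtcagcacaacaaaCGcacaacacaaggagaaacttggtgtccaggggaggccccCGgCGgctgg
BOK (chr2:241558495-241558794, GRCh38.p14, plus strand): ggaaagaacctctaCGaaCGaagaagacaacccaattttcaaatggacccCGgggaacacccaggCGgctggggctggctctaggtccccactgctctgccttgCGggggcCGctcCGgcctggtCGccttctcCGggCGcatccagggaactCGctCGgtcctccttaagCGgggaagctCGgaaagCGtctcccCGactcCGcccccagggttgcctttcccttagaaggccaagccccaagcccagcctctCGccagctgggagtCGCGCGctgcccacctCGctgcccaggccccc
PMAIP1 (chr18:59899746-59900045, GRCh38.p14, plus strand): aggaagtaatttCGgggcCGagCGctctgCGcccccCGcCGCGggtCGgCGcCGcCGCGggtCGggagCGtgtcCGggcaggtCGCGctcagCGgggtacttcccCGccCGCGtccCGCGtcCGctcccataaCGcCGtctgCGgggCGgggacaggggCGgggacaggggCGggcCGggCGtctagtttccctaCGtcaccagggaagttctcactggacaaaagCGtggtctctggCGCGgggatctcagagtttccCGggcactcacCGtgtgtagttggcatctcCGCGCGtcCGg
BCL2 (chr18:63319720-63320019, GRCh38.p14, minus strand): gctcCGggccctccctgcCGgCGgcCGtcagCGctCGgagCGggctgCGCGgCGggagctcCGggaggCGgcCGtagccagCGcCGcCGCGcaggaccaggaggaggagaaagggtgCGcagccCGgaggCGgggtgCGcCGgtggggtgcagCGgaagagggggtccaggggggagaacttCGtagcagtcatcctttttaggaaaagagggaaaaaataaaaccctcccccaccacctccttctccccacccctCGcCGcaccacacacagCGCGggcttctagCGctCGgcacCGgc
BBC3 (chr19:47232618-47232917, GRCh38.p14, minus strand): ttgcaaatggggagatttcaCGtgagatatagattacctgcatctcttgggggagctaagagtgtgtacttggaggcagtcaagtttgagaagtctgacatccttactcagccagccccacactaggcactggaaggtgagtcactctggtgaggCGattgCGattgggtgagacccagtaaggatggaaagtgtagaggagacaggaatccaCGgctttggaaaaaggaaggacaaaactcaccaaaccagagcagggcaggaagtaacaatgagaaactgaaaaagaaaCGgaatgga

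The HRK window held 25 CG dinucleotides and 66.3% G or C. That of PMAIP1 held 42, that of BCL2L11 39, and those of BCL2 and BMF 31 each, so 4 members without a peak across the start had more CG dinucleotides than HRK. BCL2L1 held 20 and BBC3 held 5. For the genes with 2 windows, BCL2L1 and BMF, the outermost is given; the inner ones held 16 and 1. BOK held 22 CG dinucleotides, and the outermost window of BAD, a family gene without a peak across its start, held 21. Across all 35116 windows in the RefSeq table the median was 14, and 96.0% held at least 1. Windows with as many as HRK or more made up 32.0%. Among the genes named here, CG number did not follow the presence of a peak across the start. Whether CG content bears on the mark was not tested.

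HRK encodes a BH3-only protein that binds BCL2 and BCL-xL and is best known from dying neurons. In band 12q24.22, the peak across its start ran from 117315146 to 117320602 on chromosome 12 (GRCh37) in AC220 1 and from 117315651 to 117321340 in DMSO 1. In AC220 2 it ran from 117312324 to 117322584, and in DMSO 2 from 117313223 to 117321805. The peak was 5.46 kb wide in AC220 1 against 5.69 kb in DMSO 1, and 10.3 kb in AC220 2 against 8.58 kb in DMSO 2. It was thus slightly narrower with AC220 in the libraries numbered 1 and wider with AC220 in those numbered 2. A core of 4.95 kb (117315651 to 117320602) was inside the peak in all 4 libraries. HRK is read toward lower coordinates, so most of the core lay on its transcribed side, up to 3.35 kb from the start, with 1.60 kb upstream.

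This peak was among the stronger ones of each list. Its fold enrichment over the background of its own library, a value of the authors, was 3.13 in AC220 1 against 3.10 in DMSO 1, and 2.63 in AC220 2 against 2.77 in DMSO 2. By fold it ranked above 94.2% of the peaks in the AC220 1 list and 80.9% in the DMSO 1 list, and above 95.0% in the AC220 2 list and 95.7% in the DMSO 2 list. The deposited -log10 q was 2.33 in AC220 1 against 2.18 in DMSO 1, and 3.71 in AC220 2 against 4.62 in DMSO 2. Fold, q and rank place the peak within its own list, so their differences between lists cannot show whether the mark changed.

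**Figure D1:**
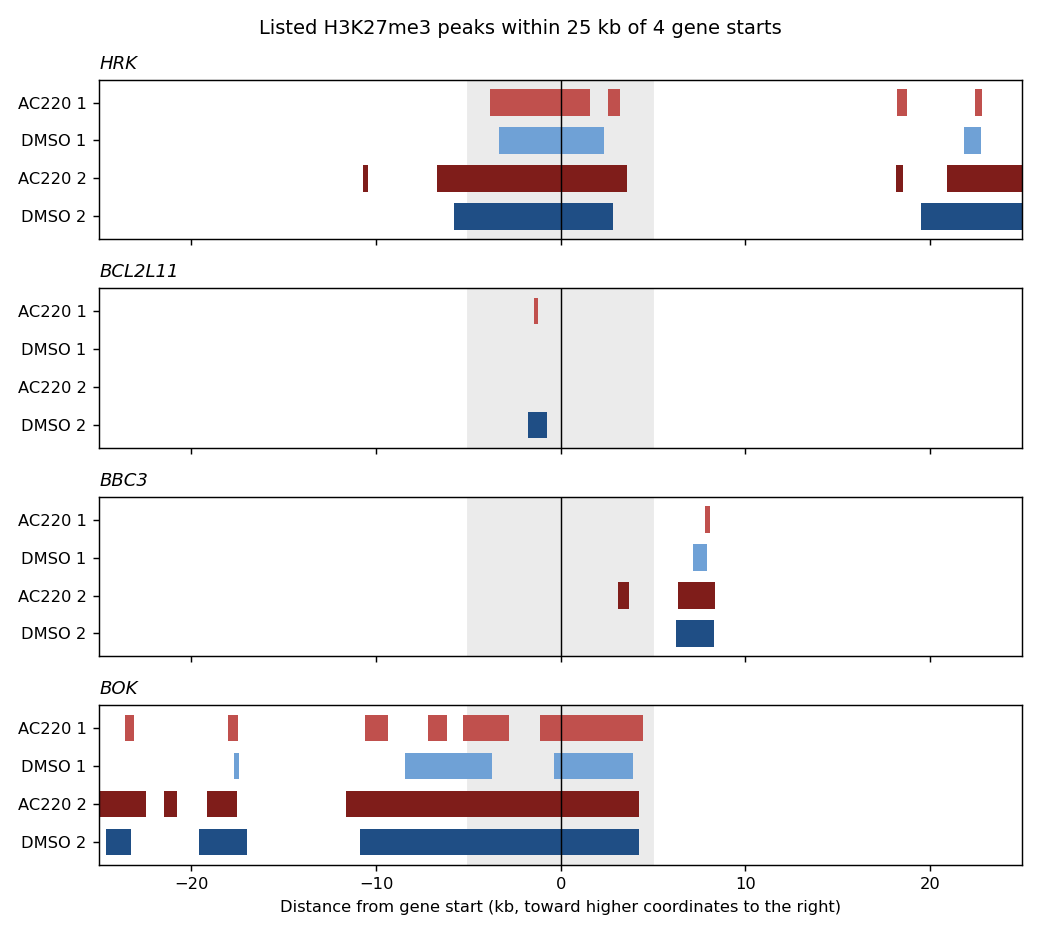
Listed H3K27me3 peaks (coloured bars) in each library along the 50 kb around the starts of HRK, BCL2L11, BBC3 and BOK, with distance from the start in kb on the x axis and the 5 kb window shaded. HRK and BOK have a peak across the start in all 4 libraries, BCL2L11 has a short one beside it in AC220 1 and DMSO 2, and the BBC3 peaks lie to one side.

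Within 5 kb of the HRK start, peaks covered 61.3% of the window in AC220 1 against 56.9% in DMSO 1, and 85.8% in AC220 2 against 78.1% in DMSO 2. Coverage was thus higher with AC220 within each number, by 4.42 and 7.79 percentage points. The treatments overlapped, since the library numbered 1 was below the one numbered 2 whichever the treatment. The means were 73.6% ± 17.3 with AC220 and 67.5% ± 14.96 with DMSO (SD, n = 2 each; exact permutation test, two-sided, p = 0.667). The spread between libraries thus exceeded the difference. With 2 libraries against 2, the smallest p that this comparison allows is 0.333. Of the 10 kb tiles of the genome with a peak in all 4 libraries, 12.3% were likewise higher with AC220 in both numbers. The difference in the libraries numbered 1 came from a separate peak of 0.675 kb in AC220 1, with a -log10 q of 1.16. When only peaks with a -log10 q of at least 2 were kept, the coverage was 54.6% in AC220 1 against 56.9% in DMSO 1, and the direction in that number turned.

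Within 25 kb the HRK values were 14.1% in AC220 1 against 13.2% in DMSO 1, and 29.9% in AC220 2 against 28.1% in DMSO 2 (exact permutation test, two-sided, p = 0.667). Keeping only peaks with a -log10 q of at least 2 turned the direction in number 1 here too. The values were then 10.9% in AC220 1 against 11.4% in DMSO 1, and 20.5% in AC220 2 against 17.2% in DMSO 2. With all listed peaks, most of the coverage beyond the peak at the start came from a second group of peaks 18.2 to 27.6 kb upstream, on the side facing FBXW8, the next gene in RefSeq order. That group comprised 2 peaks of 0.520 and 0.411 kb in AC220 1 and a single one of 0.907 kb in DMSO 1. In AC220 2 it comprised a peak of 6.61 kb and another of 0.348 kb, and in DMSO 2 a single peak of 8.06 kb. AC220 2 alone had a further peak of 0.256 kb, 10.5 kb from the start on the transcribed side. Out to 100 kb, coverage fell to 3.53% in AC220 1 against 3.46% in DMSO 1, and 11.7% in AC220 2 against 8.32% in DMSO 2. Within that reach AC220 2 had 10 peaks and DMSO 2 had 2. On the transcribed side of HRK, AC220 2 covered 13.3%, 12.1% and 7.19% of the 20 kb bins centred 100, 80 and 40 kb away, where DMSO 2 had no peak. The libraries numbered 1 did not share this difference. AC220 1 had no peak in these bins, and DMSO 1 covered 1.655% of the bin centred 80 kb away.

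**Figure D2:**
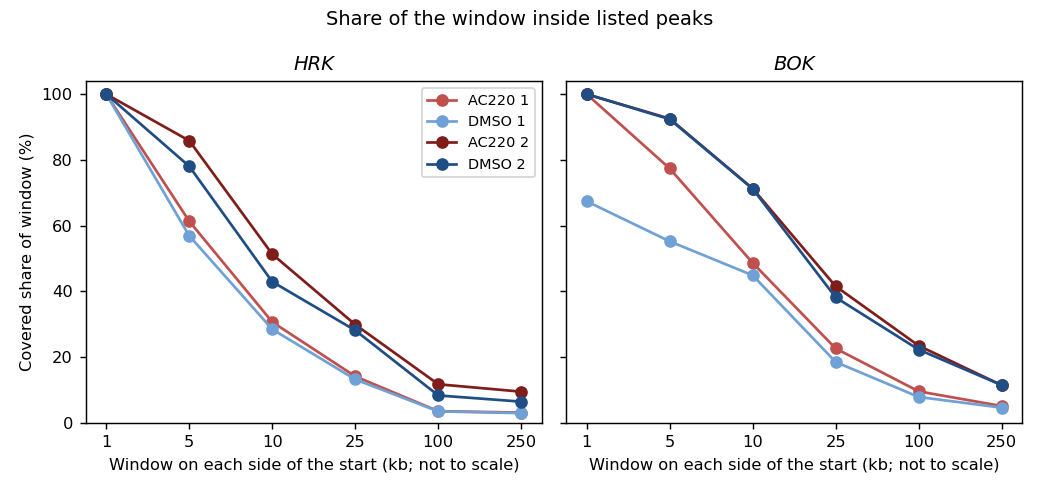
Percentage of the window inside listed peaks (y axis) for windows reaching 1 to 250 kb to each side of the start (x axis, not to scale) of HRK and BOK, with a line for each library. Around HRK the share falls from 100% within 1 kb to between 2.94% and 9.47% within 250 kb, and the lines of the libraries numbered 2 lie above those numbered 1 from 5 kb outward.

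BCL2L11 encodes BIM, a BH3-only protein that binds all the main survival proteins and is kept low by growth factor signalling. A peak of 0.247 kb lay 1.23 kb upstream of its start in AC220 1 (chromosome 2, 111876527 to 111876773), and DMSO 1 had none. AC220 2 had none, whereas in DMSO 2 a peak of 1.00 kb lay 0.749 kb upstream (111876249 to 111877251). The order of the treatments thus differed between the numbers. Both peaks were weak, with a -log10 q of 1.02 in AC220 1 and 1.65 in DMSO 2. By fold they ranked above 7.2% of the list in AC220 1 and 38.1% in DMSO 2. In the libraries without such a peak the nearest lay 86.8 kb away in AC220 2 and 313 kb away in DMSO 1. The covered share within 5 kb was 2.47% in AC220 1 against 0% in DMSO 1, and 0% in AC220 2 against 10.0% in DMSO 2 (exact permutation test, two-sided, p = 1). Starts are known here to the kb, so distances carry up to 1 kb of uncertainty.

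BBC3 encodes PUMA, a BH3-only protein induced by p53. Its start was free of peaks, and a peak 6.22 to 8.34 kb upstream, on the side facing CCDC9, was present in all 4 libraries with differing ends. It was 0.284 kb wide in AC220 1 against 0.758 kb in DMSO 1, and 2.01 kb in AC220 2 against 2.097 kb in DMSO 2. Its -log10 q was 1.02 in AC220 1 against 1.10 in DMSO 1, and 1.56 in AC220 2 against 3.804 in DMSO 2. By fold it ranked above 21.9% of the AC220 1 list, 14.7% of the DMSO 1 list, 51.7% of the AC220 2 list and 95.9% of the DMSO 2 list. AC220 2 also had a peak of 0.596 kb, 3.09 kb upstream, which was the only peak within 5 kb of BBC3 in any library. The covered share within 25 kb was 0.568% in AC220 1 against 1.52% in DMSO 1, and 5.22% in AC220 2 against 4.19% in DMSO 2 (exact permutation test, two-sided, p = 1).

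PMAIP1 encodes NOXA, which acts mainly on MCL1, and BMF encodes a BH3-only protein that answers to loss of cell attachment. Both were free of listed peaks far beyond the windows. The peak nearest to PMAIP1 was 57.5 kb away in AC220 1 against 56.1 kb in DMSO 1, and 51.6 kb in AC220 2 against 46.6 kb in DMSO 2. For BMF the distance was between 129.7 and 130.4 kb in all 4 libraries.

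Among the survival genes, MCL1, whose short-lived protein protects myeloid cells, had its nearest peak farthest away. It was between 290.1 and 290.8 kb away in every library, in a peak-free interval of 696 to 758 kb, against 522 to 753 kb for BCL2. BCL2, the target of venetoclax, had its nearest peak 111 kb away in AC220 1 against 143 kb in DMSO 1, and 110.0 kb in AC220 2 against 109 kb in DMSO 2. All of these lay upstream. On the transcribed side no peak was listed for at least 412 kb in any library, which is longer than the 197 kb of the gene in RefSeq. BCL2L1, which encodes BCL-xL, had its nearest peak 127 kb away in AC220 1 against 81.3 kb in DMSO 1, and 69.4 kb in AC220 2 against 69.6 kb in DMSO 2.

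**Figure D3:**
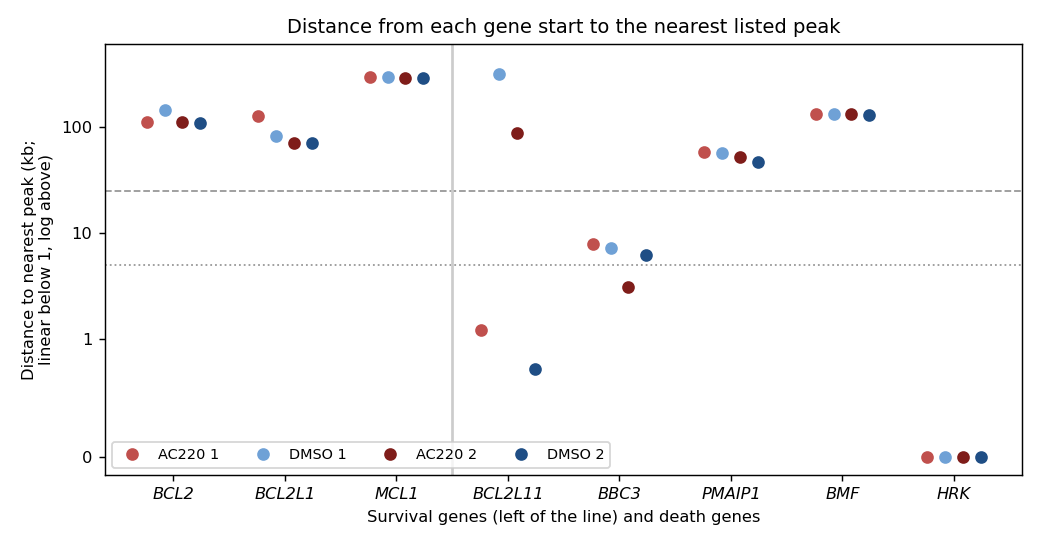
Distance from each start to the nearest listed peak in kb (y axis, linear below 1 and logarithmic above) in each library, for the survival genes left of the vertical line and the death genes right of it; dotted and dashed lines mark 5 and 25 kb. HRK is at 0 in all 4 libraries, BBC3 is between 3.09 and 7.80 kb, BCL2L11 is spread from 0.749 to 313 kb, and the other members lie beyond 46 kb.

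Taken by role, 1 of the 5 death genes (HRK) and 0 of the 3 survival genes had a peak within 5 kb in all 4 libraries, against 21.0% of 10 kb tiles of the genome. BCL2L11 and BBC3 had a peak there in 1 to 3 libraries. The other 5 members had none, against 56.0% of tiles with no peak in any library, so the counts over the 8 genes within 5 kb were near those of the genome at large. The tiles are not centred on gene starts, so their shares are not the rates for gene starts, which were not measured. Within 25 kb, HRK and BBC3 had a peak in all 4 libraries, which is 2 of 8 members, against 38.6% of 50 kb tiles. The 5 members with none in any library compare with 37.4% of those tiles. The mean covered share within 25 kb over the death genes was 3.04% in AC220 1 against 2.94% in DMSO 1, and 7.02% in AC220 2 against 6.86% in DMSO 2. Over the survival genes it was 0% in every library. HRK made up most of the mean of the death genes, which without HRK was 0.266% in AC220 1 against 0.379% in DMSO 1, and 1.31% in AC220 2 against 1.55% in DMSO 2. Genes are not replicates, and the difference between the roles was not tested.

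A member was called lower or higher with AC220 when its coverage within 25 kb differed by at least 5 percentage points in both replicate numbers. A call of lower needs at least 5% coverage in both DMSO libraries, which 1 member (HRK) had and 7 had not. HRK was not lower, against 28.2% of the 50 kb tiles with such coverage and 8.69% of all 50 kb tiles. The count of 0 of 8 members lower was therefore almost fixed by their low coverage and says nothing about the other 7. By the same rule 0 were higher, against 0.551% of tiles. The widest gap within a replicate number was at BCL2L11, where coverage in AC220 2 was 0% against 2.01% in DMSO 2.

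Out to 250 kb, 4 members (BCL2L1, BBC3, BMF and HRK) were covered more with AC220 in both numbers, 1 (PMAIP1) was covered less in both, and 3, among them MCL1 with no peak, showed no common direction. Of 500 kb tiles, 12% were higher and 52.9% lower in both numbers, by any amount. In unstained Giemsa bands, where 6 of the 8 starts lie, 18.5% of tiles were higher and 46.3% lower. This wider window was added after the narrower ones had been seen, and it holds many other genes. The BCL2L1 window was covered over 10.2% in AC220 1 against 9.02% in DMSO 1, and over 19.2% in AC220 2 against 18.1% in DMSO 2. The differences at BBC3 were 0.0362 and 1.504 percentage points, at BMF 0.571 and 0.804, and at HRK 0.171 and 3.04. Each of these 5 genes had an exact permutation p of 0.667 (two-sided), and their differences were smaller than the spread between libraries of the same treatment.

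PMAIP1 had the most densely marked surroundings of the 8. Its 500 kb window was covered over 15.1% in AC220 1 against 18.3% in DMSO 1, and over 42.7% in AC220 2 against 48.4% in DMSO 2. The start nevertheless lay in a peak-free interval of 110 to 121 kb, between marked stretches on the side of CCBE1 and on that of MC4R, its neighbours in RefSeq order. The MCL1 window held no peak at all. The BCL2L11 window was covered over 0.161% in AC220 1 against 0% in DMSO 1, and 0.315% in AC220 2 against 1.08% in DMSO 2. The peak-free interval around the members' starts had a median of 250 kb in AC220 1 against 263 kb in DMSO 1, and of 256 kb in AC220 2 against 187 kb in DMSO 2. Over points spaced 10 kb apart in the genome this median was 249 kb in AC220 1 against 225 kb in DMSO 1, and 85.6 kb in AC220 2 against 72.2 kb in DMSO 2.

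**Figure D4:**
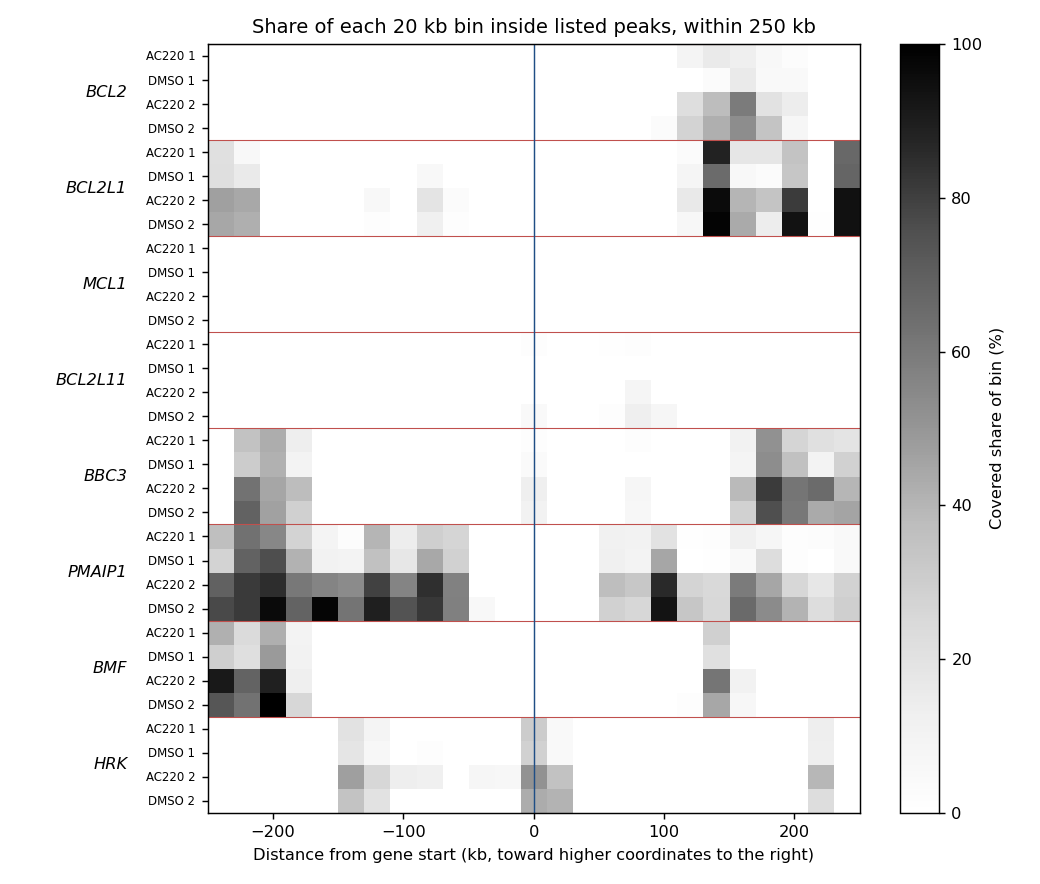
Percentage of each 20 kb bin inside listed peaks (grey scale) against distance from the start in kb, with a row for each library of each member. The bins at the start are clearly grey for HRK and at most faint for the other members, the flanks of PMAIP1 are dark on both sides, and the MCL1 rows are blank.

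Of the 9 other BCL2 family genes examined, 1 had a peak within 5 kb in all 4 libraries, 1 in some of them and 7 in none. The survival genes BCL2L2, BCL2A1 and BCL2L10, the pore formers BAX and BAK1, and the BH3-only genes BID and BIK had none within 5 kb. Within 25 kb, 4 of the 9 (BAX, BAK1, BOK and BAD) had a peak in all 4 libraries, against 38.6% of 50 kb tiles. The survival gene BCL2L2 had 1 in some libraries, and 4 genes had none, against 37.4% of those tiles. BOK, which encodes a relative of BAX and BAK1, had a peak across its start in every library. Its 5 kb window was covered over 77.4% in AC220 1 against 55.2% in DMSO 1, and over 92.5% in AC220 2 against 92.4% in DMSO 2 (exact permutation test, two-sided, p = 0.667). The peak across the start of BOK was 5.54 kb wide in AC220 1 against 4.26 kb in DMSO 1, and 15.9 kb in AC220 2 against 15.1 kb in DMSO 2. A core of 4.26 kb (chromosome 2, 242497653 to 242501913, GRCh37) was shared by all 4 libraries. By fold it ranked above 97.9% of the list in AC220 1 against 95.8% in DMSO 1, and 99.1% in AC220 2 against 98.5% in DMSO 2. BAD, a BH3-only gene regulated by phosphorylation, had a strong peak 10.8 to 12.1 kb wide on its upstream side, toward KCNK4. The near edge of this peak lay 5.21 kb from the BAD start in AC220 1 against 5.64 kb in DMSO 1, and 4.65 kb in AC220 2 against 4.47 kb in DMSO 2. It thus fell within 5 kb only in the libraries numbered 2. The gene GPR137 overlaps BAD in RefSeq, and where it lies relative to this peak was not examined. Counting all 17 genes, the start was inside a peak in every library only at HRK and BOK.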

How the data were processed

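H3K27me3 peaks of 4 MOLM14 libraries were used, 2 with AC220 and 2 with DMSO, grouped and numbered by the sample titles. Per the submitters' processing notes, the tools included BWA (0.7.10-r789) and MACS2 (2.1); their settings are not stated there. The deposited broad peak lists, 1 for each library, give positions, a fold enrichment (a ratio over the background of that library) and -log10 p and q-values; peaks down to a -log10 q of 1.00 were listed. The deposited score was not used. Lists called one by one depend on each library's depth, which is unknown. The use of inputs or Drosophila reads in the calls, and the build, are not given in the sources used here. Peak ends lay within the GRCh37 lengths on all 23 chromosomes examined and beyond the GRCh38 lengths on 14.

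GRCh37 starts of the members, to the kb, came with the definition of the gene set; those of the other genes were set to the kb from general knowledge. Coverage of a window means the part of its length, in percent, that lies in peaks. Tiles of 10, 50 and 500 kb on the 22 autosomes and X, outside centromeric, variable and stalk bands, served as background; unsequenced gaps elsewhere were kept. Band stains came from the hg19 table shipped with circlize. Treatments were compared per member by an exact permutation test over the 6 assignments of libraries. Python 3.11.15, numpy 2.4.6, pandas 2.3.3, scipy 1.17.1 and matplotlib 3.10.9 were used, and the coverage and tile functions were tested on simulated peaks. All 8 members were described; other family genes with a peak within 5 kb in at least 1 library were named with values. The members, lists and tests were chosen with earlier results of these data known. Alternatives were a stricter q, trimmed DMSO lists, moved starts, other windows, a replicate block and left-out libraries.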

Additional observations from a re-analysis of the deposited data

How the results depend on the processing

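HRK was the only member with a peak within 5 kb in all libraries used under every alternative run, namely peaks with a -log10 q of at least 2, DMSO lists trimmed to the covered length of their AC220 lists, starts moved by 1 kb, a window of 1 kb, at least 500 bp in peaks, and each replicate number or library left out. The count of members lower with AC220 in both numbers stayed 0 in all 7 alternatives, although 7 members had too little DMSO coverage to be called in the main setting, and the count higher was 1 (HRK) when any difference counted and otherwise 0. The mean over death genes minus that over survival genes was 4.97 percentage points within 25 kb (mean of 4 libraries, SD 2.28). It was 15.03 within 5 kb, 9.42 within 10 kb, 3.21 with a -log10 q of at least 2, 2.99 to 6.94 with libraries or numbers left out (lowest without replicate 2), and 0.875 without HRK, a setting added after the data had been seen.

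The AC220 minus DMSO differences of single members were not stable. Leaving out single libraries or numbers gave -6.16 to 18.4 percentage points for HRK within 5 kb and -6.53 to 9.21 within 25 kb, where removal of DMSO 1 or AC220 2 turned the sign because the numbers are then unbalanced. The ranges were -2.29 to 2.37 for BBC3 within 25 kb, -2.01 to 0.494 for BCL2L11 within 25 kb and -10.03 to 2.47 within 5 kb. Trimming turned BCL2L11 to 0.247 within 25 kb and 1.24 within 5 kb, since it removed the weak DMSO 2 peak. The stricter q turned BBC3 within 25 kb to -2.097, leaving the DMSO 2 peak alone. With a replicate block the HRK differences stayed 6.11 within 5 kb and 1.34 within 25 kb and the exact sign-flip p was 0.5 for both, the smallest that 2 pairs allow; it changed no call. Deviations of the same-numbered libraries from their treatment means had a correlation of 0.896 across 50 kb tiles, but 2 pairs and the labels do not establish pairing. Unknown depth limits every absence of a peak.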
